A study of Mus musculus with 4 samples.

Results

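The carboxylesterases are serine hydrolases of the endoplasmic reticulum that cleave ester, thioester and amide bonds. They process many drugs and pesticides and also hydrolyse acylglycerols and cholesteryl esters, and in the small intestine and liver they are among the main esterases of the cell. In rodents the genes have multiplied into neighbouring copies, grouped by sequence into the Ces1, Ces2 and Ces3 subfamilies.

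The 10 genes described here are Ces1d, Ces1f, Ces1g, Ces2a, Ces2b, Ces2c, Ces2e, Ces2g, Ces3a and Ces3b. They were picked by symbol from the 24182 genes that both deposited tables list. The choice was made with the fasting changes of these genes in view, so those changes are given as a description, carry no test made here and support nothing.

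RNA came from small-intestinal crypts of male C57BL/6J mice aged 9 weeks, and the study asked how an antibiotic that depletes what the labels call AKK alters expression in fed and fasted animals. The 4 groups were fed without tetracycline, fasted for 24 hours without it, fed after 21 days of tetracycline, and fasted for 24 hours with 21 days of tetracycline. All mice shared 1 strain, sex and age, and the labels name no other allele or agent. The labels list 1 sample per group, whereas the deposited means hold 4 libraries per table, 2 fasted and 2 fed.

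These libraries could not be tied to the labelled samples, and nothing says whether they came from separate animals. Of the 2 libraries of a side, that with the higher size factor is called library 1. Their values are normalized counts, that is, whole counts divided by the library's size factor, and each is shown singly with no SD. The means summed to 65863261 normalized counts for an average library without and 65327199 with tetracycline, and size factors ran from 0.930 to 1.09 and from 0.727 to 1.27. The 2 tables were scaled separately.

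The labels call the material crypt epithelium, and both crypt and villus transcripts were present. The crypt stem cell marker Lgr5 had 375 to 1168 normalized counts per library without and 391 to 1515 with tetracycline. The villus brush-border hydrolase genes Sis and Lct had mean levels of 130249 and 64676 without and 110772 and 41286 with tetracycline. In these bulk samples, fewer cells of a type and less RNA per cell cannot be told apart.

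All 10 genes lie on mouse chromosome 8 in the GRCm38 reference with GENCODE M21 annotation, and all are protein-coding. The Ces1 members occupy chr8:93166068-93337308 on the minus strand. The Ces2 and Ces3 members occupy chr8:104734003-105093929 on the plus strand. Ces3a is at chr8:105048601-105058413 and Ces3b at chr8:105083753-105093929, while Ces2b is at chr8:104831572-104840093 and Ces2c at chr8:104847068-104854483.

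The coding sequences show how close the copies are, which bears on how far reads can be assigned. Over the 14 pairs within a subfamily, identity of the aligned coding bases ran from 74.6% to 95.3% with a median of 83.3%. Over the 31 pairs between subfamilies it ran from 62.7% to 65.9%. Ces3a and Ces3b were the closest pair at 95.3%, followed by Ces2b and Ces2c at 92.1%.

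These pairs matter because, in the deposited data, 1 gene of each pair differed between fasted and fed libraries by much more than its near copy. The 120 coding bases in which Ces3a and Ces3b differ most, with the 16 differing bases in capitals, cover coding positions 1 to 120 of both genes:
Ces3a: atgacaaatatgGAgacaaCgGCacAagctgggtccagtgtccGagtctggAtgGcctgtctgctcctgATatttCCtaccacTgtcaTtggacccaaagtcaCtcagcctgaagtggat
Ces3b: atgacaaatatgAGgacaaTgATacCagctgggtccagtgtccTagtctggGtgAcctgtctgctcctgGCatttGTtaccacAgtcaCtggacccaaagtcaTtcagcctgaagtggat

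The corresponding stretch for Ces2b and Ces2c holds 19 differing bases in 120, at coding positions 1223 to 1342 of Ces2b and 1238 to 1357 of Ces2c:
Ces2b: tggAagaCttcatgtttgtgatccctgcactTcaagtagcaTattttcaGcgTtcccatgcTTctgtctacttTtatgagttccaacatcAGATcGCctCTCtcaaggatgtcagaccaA
Ces2c: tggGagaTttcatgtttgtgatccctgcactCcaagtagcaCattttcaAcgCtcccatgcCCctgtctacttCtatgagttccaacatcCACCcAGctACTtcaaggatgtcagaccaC

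Elsewhere the Ces3 pair was identical over runs of up to 194 bases. Of the 31-base words in the Ces3b transcript, 36.1% also occurred in a Ces3a transcript, and 42.6% of the Ces3a words occurred in a Ces3b transcript. For Ces2c, 58.2% of the words occurred in another gene, and 50.2% in the pseudogene Ces2d-ps. For Ces2a the share was 37.4%, with 30.9% in the predicted gene Gm7208, and for Ces2b it was 26.4%, with 8.02% in Ces2c. The other 5 members shared between 5.54% and 12.8% of their words. Levels of Ces3a, Ces3b, Ces2a, Ces2b and Ces2c are therefore uncertain to the extent that reads were split between copies, and strand was not kept.

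The family was carried by the Ces2 genes. The 10 means summed to 162094 normalized counts without and 157314 with tetracycline, which is 0.246% and 0.241% of all counts. The Ces2 members held 91.2% and 88.1% of the family sum, the Ces1 members 8.67% and 11.7%, and the Ces3 members 0.136% and 0.141%.

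Per kilobase of transcript, Ces2e, known as a pyrethroid hydrolase, was highest, with a mean of 25461 normalized counts per kilobase without and 24750 with tetracycline. Ces2c followed at 18259 and 19700, and Ces2a at 17665 and 11577 normalized counts per kilobase. Ces2c and Ces2a did not differ without tetracycline by more than their own libraries did. Ces1f came next at 6161 and 7819 normalized counts per kilobase, then Ces2g at 2521 and 3100.

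Below these, Ces1d had a mean level of 610 and 1030, Ces1g of 404 and 544, and Ces2b of 382 and 443 normalized counts per kilobase. Ces3a, at 69.7 and 80.0, and Ces3b, at 32.5 and 24.1 normalized counts per kilobase, were the lowest. The order of these means over all 4 libraries was the same in both tables, but it differed in the fed libraries alone. There Ces2b had 531 and Ces1g 419 normalized counts per kilobase without tetracycline, and with it Ces2b had 675, Ces1g 430 and Ces1d 393. Ces1g and Ces2b lay within the difference between their fed libraries without tetracycline, in which Ces1g differed 2.06-fold and Ces2b 2.34-fold.

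Ces3b was the member whose transcript level differed most between fasted and fed libraries. Without tetracycline it had 239.4 and 68.8 normalized counts in the fasted libraries and 1.0 and 3.0 in the fed libraries. With tetracycline it had 22.2 and 199.5 in the fasted and 7.9 and 2.2 in the fed libraries. The fasted libraries lay above the fed libraries in both tables, but the fasted libraries themselves differed 3.48-fold without and 8.98-fold with tetracycline.

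The fed level of Ces3b rested on 4 counts in all without tetracycline and on 12 with it. The ratio of fasted to fed counts, after scaling by the summed size factors of each side, was 80.6 without and 16.2 with tetracycline. It pools the 2 libraries of a side, so it shows nothing of their spread and need not equal the deposited change. In the authors' deposited table the log2 change was 6.27 (SE 0.96, DESeq2 adjusted p 3.29e-08) without tetracycline. With tetracycline the authors' deposited table gave 4.43 (SE 1.13, DESeq2 adjusted p 0.0204). Without fasted library 2 the Ces3b change with tetracycline was 2.15, and without fasted library 1 the change without tetracycline was 5.10.

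Ces3a, the near copy and upstream neighbour, showed no such separation. Its fasted libraries held 132.1 and 152.7 normalized counts and its fed libraries 106.2 and 179.8 without tetracycline. With tetracycline the values were 99.6 and 203.6 fasted and 144.1 and 207.1 fed. The sides overlapped in both tables. The authors' deposited tables gave log2 changes of -0.0066 (SE 0.42) without and -0.22 (SE 0.57) with tetracycline.

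As a share of the pair's normalized counts, which does not depend on library scaling, Ces3b made up 64.4% and 31.1% in the fasted and 0.926% and 1.65% in the fed libraries without tetracycline. With tetracycline its share was 18.2% and 49.5% in the fasted and 5.18% and 1.03% in the fed libraries. All fasted shares exceeded all fed shares within each table. How far reads shared between the copies move these shares was not tested.

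**Figure D1:**
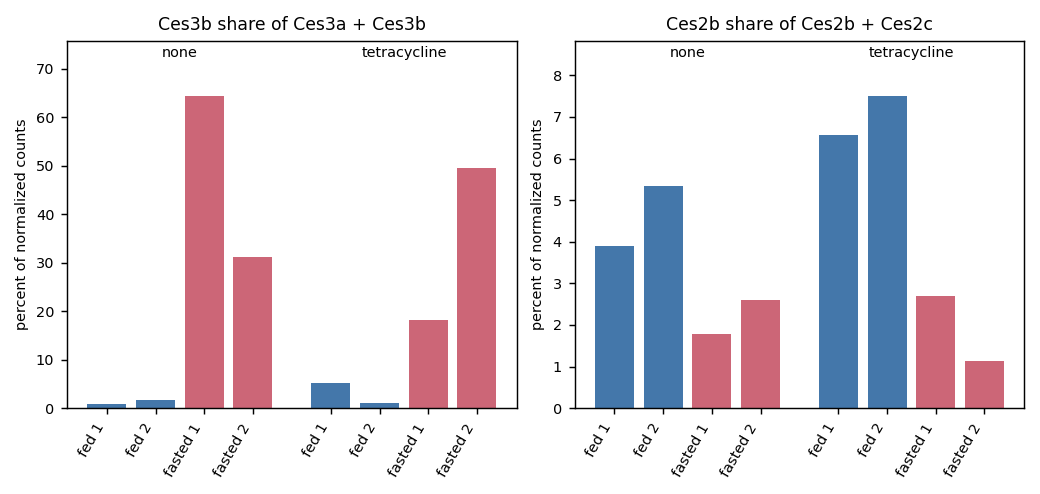
Bars give, for each library, Ces3b as a percent of the normalized counts of Ces3a plus Ces3b (left) and Ces2b as a percent of Ces2b plus Ces2c (right), fed in blue and fasted in red, without (none) and with tetracycline. The Ces3b share is higher in the fasted libraries, up to 64.4%, and the Ces2b share is lower in them, down to 1.14%.

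Both Ces3 genes are best known from liver, so 12 hepatocyte markers were examined. The 9 that could be resolved by library summed to 832.9 and 1338 normalized counts in the fasted and 863.4 and 644.0 in the fed libraries without tetracycline, and to 1868 and 1255 fasted and 598.5 and 994.4 fed with it. The sums overlapped between sides without tetracycline, and the fasted sums lay above the fed ones with it. In both tables the fasted library with the higher Ces3b level had the lower marker sum.

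Single markers differed. The cytochrome gene Cyp2e1 had 311.9 and 476.4 normalized counts in the fasted and 198.5 and 97.5 in the fed libraries without tetracycline, and 759.5 and 357.7 fasted and 159.9 and 304.2 fed with it. Its fasted libraries lay above the fed ones in both tables, and the authors' deposited table called it higher without tetracycline, with a log2 change of 1.41 (SE 0.43, DESeq2 adjusted p 0.0423). Ttr, the transthyretin gene, had 967.6 and 766.3 fasted and 313.4 and 586.7 fed with tetracycline, and its sides overlapped without it.

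Albumin (Alb), a defining hepatocyte gene, had 24.8 and 68.8 normalized counts in the fasted and 47.6 and 66.3 in the fed libraries without tetracycline, where the sides overlapped. With tetracycline Alb had 67.5 and 61.9 fasted and 52.0 and 37.8 fed, so that the fasted libraries lay above. Apoh, the gene of an apolipoprotein, had 57.8 and 76.4 fasted and 54.6 and 45.2 fed without tetracycline, and 47.7 and 37.1 fasted and 37.0 and 31.3 fed with it, so the fasted libraries lay above in both tables. The fibrinogen genes Fgb and Fga were seen in fasted libraries only. Without tetracycline Fgb had 5 and 1 counts there and Fga 1 and 2, and with it each had 3 and 0. Ahsg and Hpx, at means of at most 4.95 normalized counts, and F2 overlapped between sides or were higher in the fed libraries without tetracycline. Cps1, the most abundant of the list with means of 64173 without and 70106 with tetracycline, was too abundant to be tried by library. It is outside the sums above, and it ran lower in fasted libraries. The authors' deposited tables gave it log2 changes of -0.56 (SE 0.31) and -0.41 (SE 0.49). Fgg and Serpina3k were not listed in either table. The part of liver transcripts in the Ces3b level was not tested.

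Ces2b was lower in fasted libraries in both tables. Without tetracycline it had 743.0 and 844.2 normalized counts in the fasted and 1083 and 2538 in the fed libraries. With tetracycline it had 590.8 and 846.1 in the fasted and 1856 and 2746 in the fed libraries. The sides did not overlap in either table, and the fasted libraries lay closer together than the fed libraries without tetracycline.

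Ces2b had a log2 change in the authors' deposited table without tetracycline of -1.19 (SE 0.39, DESeq2 adjusted p 0.0773), which missed the threshold of 0.05. In the authors' deposited table with tetracycline it was -1.68 (SE 0.44, DESeq2 adjusted p 0.0284). Leaving out fed library 2 brought the change without tetracycline to -0.45. Leaving out any library with tetracycline gave between -1.96 and -1.37.

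Most markers of immune and stromal cells also had a lower mean in fasted than in fed libraries. All 8 macrophage and all 7 lymphocyte markers had a log2 change below 0 in both tables, as had 6 of 6 stroma markers without and 5 of 6 with tetracycline. The authors' deposited table called 1, 3 and 3 of these lists' genes lower without tetracycline by DESeq2's adjusted p, and 0 with it, where 5, 4 and 2 had an unadjusted p under 0.05. The median log2 changes of the macrophage, lymphocyte and stroma lists were -1.23, -1.01 and -2.77 without and -1.39, -1.78 and -1.10 with tetracycline. With tetracycline the lymphocyte and stroma sums overlapped between sides. They were 18721 and 2017 in fasted library 1, beside 14930 and 1495 in fed library 2.

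Fed library 2 without tetracycline, where Ces2b was highest, also had the highest macrophage sum, at 3834 normalized counts beside 1923 in fed library 1 and 928.3 and 1450 in the fasted libraries. It had the highest stroma sum, at 2891 beside 1556, 760.4 and 1443, and the highest pancreatic acinar sum, at 1753 beside 512.1, 554.0 and 700.1, in the same order. With tetracycline the macrophage sum was 6127 in fed library 1 and 2867 in fed library 2, the opposite order to Ces2b, and 2165 and 584.7 in the fasted libraries. The stroma sum with tetracycline took the same opposite order, at 3692 and 1495 in the fed and 2017 and 729.2 in the fasted libraries. The acinar sum with tetracycline was 1109 in fed library 1 and 1090 in fed library 2, but 8 of its 9 genes were higher in fed library 2, the order of Ces2b, with Cela1 the exception. The part of these cells in the Ces2b level was not tested.

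Ces2c, an acylglycerol hydrolase abundant in the intestine and the near copy of Ces2b, did not follow it. Its fasted libraries held 40687 and 31554 normalized counts and its fed libraries 26620 and 45020 without tetracycline. With tetracycline they held 21336 and 73657 fasted and 26403 and 33840 fed, so that the sides overlapped in both tables. The authors' deposited tables gave log2 changes of 0.012 (SE 0.32) and 0.66 (SE 0.61).

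Within the pair, Ces2b made up 1.79% and 2.61% of the normalized counts in the fasted and 3.91% and 5.34% in the fed libraries without tetracycline. With tetracycline it made up 2.69% and 1.14% in the fasted and 6.57% and 7.51% in the fed libraries. Every fasted share was below every fed share, also across the tables.

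The other abundant Ces2 genes varied more between libraries of 1 side than between sides. Ces2e had 95101 and 62319 normalized counts in the fasted and 48640 and 68818 in the fed libraries without tetracycline. With tetracycline the values were 42106 and 140647 fasted and 36044 and 48401 fed. Its sides overlapped in both tables, and fasted library 2 with tetracycline stood well above the other libraries.

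Ces2a, which hydrolyses acylglycerols, had 43354 and 26426 normalized counts in the fasted and 24240 and 44473 in the fed libraries without tetracycline. With tetracycline the values were 13862 and 41971 fasted and 16385 and 18542 fed. The sides overlapped again, with fasted library 1 lowest and fasted library 2 highest under tetracycline. In the authors' deposited tables the log2 changes were 0.42 (SE 0.31) and 1.11 (SE 0.61) for Ces2e.

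For Ces2a the authors' deposited tables gave 0.022 (SE 0.36) and 0.68 (SE 0.58). Ces2g had 5040 and 7595 normalized counts in the fasted and 7708 and 8481 in the fed libraries without tetracycline. With it the values were 7181 and 12168 fasted and 6390 and 9707 fed. The fasted libraries of Ces2g lay below the fed ones without tetracycline and overlapped them with it. The authors' deposited tables gave Ces2g log2 changes of -0.36 (SE 0.29) and 0.27 (SE 0.47).

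**Figure D2:**
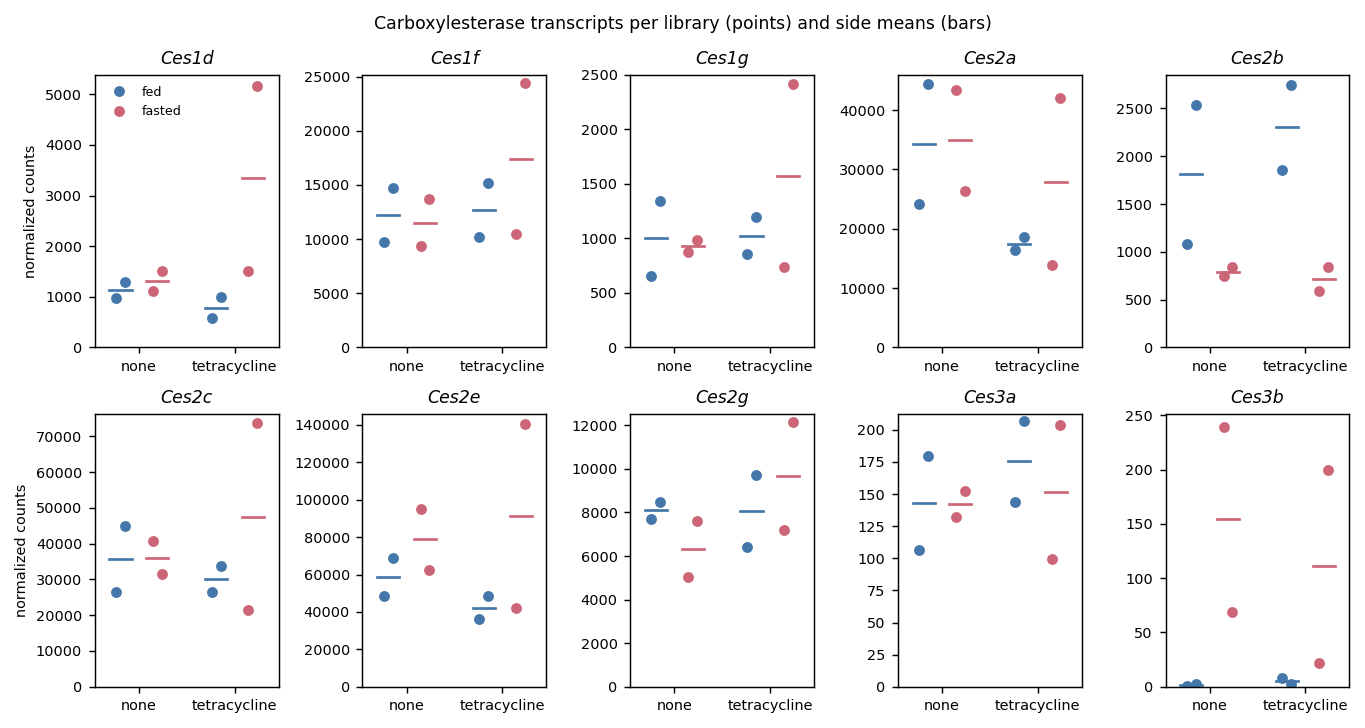
Each panel plots 1 gene, with a point per library and a bar at the mean of the 2 libraries of a side, in normalized counts on a linear axis from 0, fed in blue and fasted in red. Ces3b is high in fasted and Ces2b low in fasted libraries in both tables, and most other members have 1 high fasted library with tetracycline.

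Among the Ces1 genes, Ces1d, a triacylglycerol hydrolase, had 1109 and 1514 normalized counts in the fasted and 967.6 and 1296 in the fed libraries without tetracycline. With tetracycline it had 1518 and 5162 in the fasted and 586.7 and 990.1 in the fed libraries. The sides overlapped without tetracycline, and the fasted libraries lay above the fed ones with it.

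For Ces1d the log2 change in the authors' deposited tables was 0.21 (SE 0.30, DESeq2 adjusted p 0.914) without and 2.08 (SE 0.64, DESeq2 adjusted p 0.126) with tetracycline, so neither passed the threshold. Without fasted library 2 the change with tetracycline was 0.95.

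Ces1f, the most abundant Ces1 member here, had 9369 and 13678 normalized counts in the fasted and 9730 and 14687 in the fed libraries without tetracycline. With tetracycline the values were 10431 and 24443 fasted and 10171 and 15190 fed. Ces1g, a lipid hydrolase studied in liver, had 876.9 and 984.0 in the fasted and 654.0 and 1345 in the fed libraries without tetracycline. With it, Ces1g had 734.0 and 2413 in the fasted and 857.6 and 1194 in the fed libraries.

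The sides overlapped for Ces1f and Ces1g in both tables. In the authors' deposited tables the log2 changes were -0.083 (SE 0.32) and 0.46 (SE 0.53) for Ces1f. For Ces1g the authors' deposited tables gave -0.10 (SE 0.37) and 0.62 (SE 0.62).

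**Figure D3:**
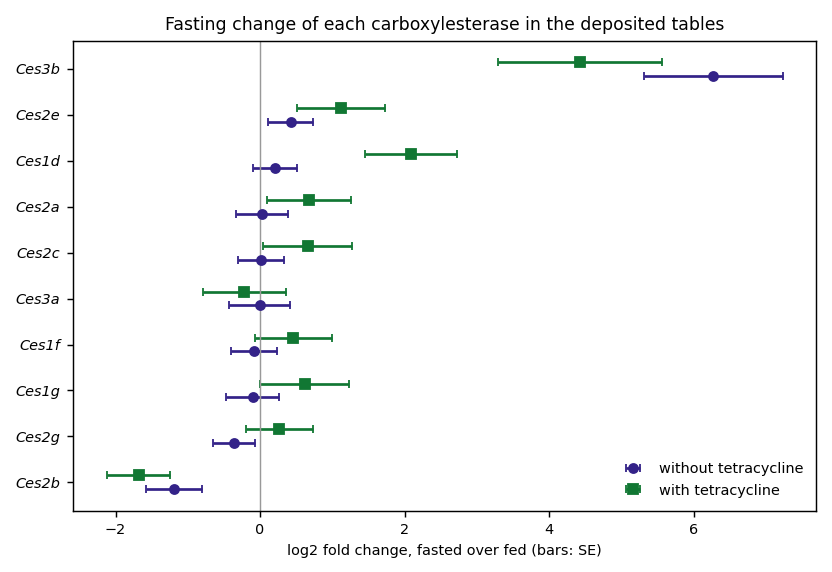
Points give the log2 change, fasted over fed, of each member in the authors' deposited tables without (circles) and with tetracycline (squares), and bars give the deposited SE. Ces3b lies far to the right in both tables, at 6.27 and 4.43, and Ces2b to the left, at -1.19 and -1.68, while the others lie nearer to 0 apart from Ces1d with tetracycline.

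Counted by the authors' adjusted p under 0.05, 1 of the 10 members (Ces3b, higher) was called without tetracycline, where 2.27% of 18100 tested genes passed, 1.06% as higher and 1.22% as lower. With tetracycline 2 members were called (Ces3b higher, Ces2b lower), where 0.6% of 17993 tested genes passed, 0.333% as higher and 0.267% as lower. By a log2 change of at least 1 and a mean of at least 1, 2 members passed without tetracycline, 1 higher and 1 lower, where 21% of 22803 genes did, 11.5% higher and 9.48% lower. With it 4 passed, 3 higher and 1 lower, where 22.9% of 23325 genes did, 8.95% higher and 14% lower. Since the members were chosen on these comparisons, nothing is read from the shares.

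The median log2 change of the 10 members was 0.0027 without and 0.64 with tetracycline, beside 0.0067 and -0.018 over all tested genes. With tetracycline 8 members had a change above 0, and without it 5 had. The deposited SEs of the members ran from 0.29 to 0.96 and from 0.44 to 1.13.

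The median with tetracycline rested on 1 library. In fasted library 2 all 10 members were higher than in fasted library 1, by 1.43-fold for Ces2b to 8.98-fold for Ces3b. Without fasted library 2 the median change of the members was -0.31, and 2 members in place of 4 had a change of at least 1. Without fasted library 1 the median was 1.25, and 7 members had such a change.

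Markers of the other cells that a crypt preparation can hold were compared between the same libraries. Of the 14 villus enterocyte markers, the 10 that could be resolved by library (Alpi, Apoc3, Fabp1, Sis, Lct, Mgam, Slc5a1, Ada, Nt5e and Krt20) summed to 338673 normalized counts in fasted library 1 and 1183377 in fasted library 2 with tetracycline, and to 576361 and 578085 in the fed libraries. All 10 were higher in fasted library 2 than in fasted library 1. Apoa4, Apoa1, Fabp2 and Anpep were too abundant to be tried by library. The sum of Ces2a, Ces2c and Ces2e in the same libraries was 77304 and 256274 fasted and 78833 and 100783 fed.

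Between the fasted libraries the villus marker sum thus differed 3.49-fold and the abundant Ces2 sum 3.32-fold, in the same direction. Other marker lists went both ways. The 7 resolved adipocyte markers summed to 4798 and 14116 in these libraries and the 5 resolved colon markers to 20082.5 and 36376.5, the villus direction. Only 2 and 3 of these genes were higher in fasted library 2. The crypt and lymphocyte sums went the opposite way. The 8 resolved crypt stem and cycling markers summed to 40042 and 22628 in the fasted libraries with tetracycline, and 31314 and 51756 in the fed libraries. The 7 lymphocyte markers summed to 18721 and 3160 fasted and 56783 and 14930 fed.

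Without tetracycline the library with the highest villus sum was fasted library 1, at 1223433, followed by fed library 2 at 716925, fasted library 2 at 591602 and fed library 1 at 467203. The Ces2a, Ces2c and Ces2e sum took the same order, at 179142, 158310, 120299 and 99500. Ces1f, by contrast, was lower in fasted library 1 than in fasted library 2, as were Ces1d, Ces1g, Ces2b, Ces2g and Ces3a. The 7 lymphocyte markers summed to 5773 and 11271 in the fasted and 13364 and 16800 in the fed libraries. The part of cell content in the levels of the family was not tested.

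**Figure D4:**
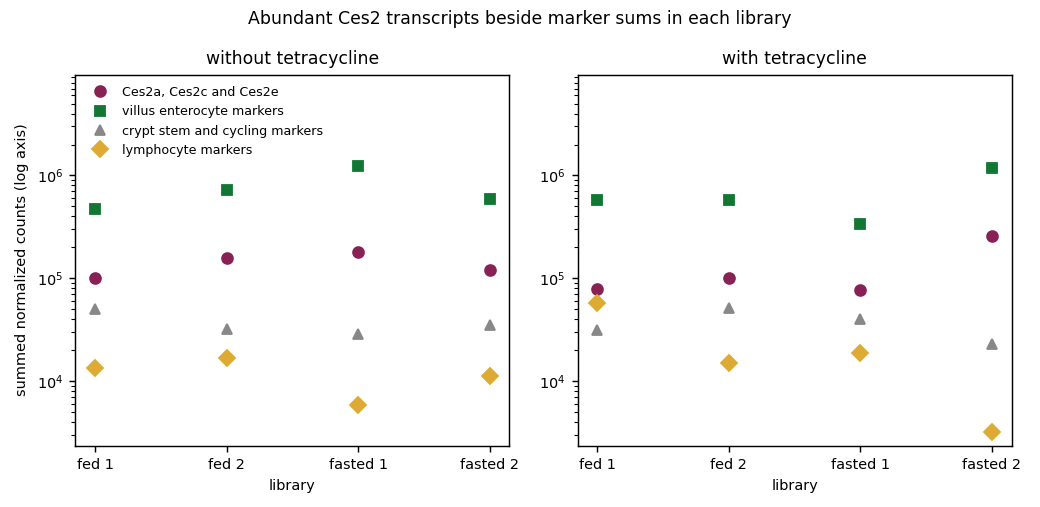
Each symbol is a sum of normalized counts in 1 library, on a log axis, for Ces2a, Ces2c and Ces2e together, the 10 resolved villus enterocyte markers, the 8 crypt stem and cycling markers and the 7 lymphocyte markers. The Ces2 and villus sums are both highest in fasted library 1 without tetracycline and in fasted library 2 with it, where the lymphocyte sum is lowest.

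Along the length of the intestine, the 8 distal small intestine markers summed to 25064 and 66438 normalized counts in the fasted libraries with tetracycline, with all 8 higher in library 2, and to 36784 and 31646 in the fed libraries. Without tetracycline they summed to 70910 and 28666 fasted and 52277 and 70042 fed. With tetracycline the distal and Ces2 sums were both higher in fasted library 2 than in fasted library 1, but the fed libraries took opposite orders. Without tetracycline fasted library 2 was lowest for the distal sum and fed library 1 for the Ces2 sum. The sum hides the ileal bile acid binding protein gene Fabp6, which had 583.4 and 330.2 normalized counts fasted and 13402 and 18584 fed without tetracycline, and 728.2 and 4434 fasted and 14356 and 9523 fed with it. In the authors' deposited table without tetracycline Fabp6 was called lower, with a log2 change of -5.13 (SE 0.34, DESeq2 adjusted p 1.46e-48). With tetracycline it was not called, at -2.21 (SE 0.75, DESeq2 adjusted p 0.268). Of the 8 markers, 4 without and 7 with tetracycline had a log2 change above 0, with medians of -0.014 and 0.72.

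Proximal small intestine markers moved between the same fasted libraries in the same direction. With tetracycline the 8 resolved of 9 summed to 175079 and 326213 normalized counts fasted, with all 8 higher in library 2, and to 173838 and 183851 fed. Without tetracycline the 7 resolved summed to 360536 and 243591 fasted and 144352 and 209053 fed. Fabp1 alone held 145141 of the 175079 in fasted library 1 with tetracycline, and Fabp1 and Lct are also villus markers here. Slc40a1, the iron exporter gene, was called lower in fasted libraries in both of the authors' deposited tables, at -1.28 (SE 0.34, DESeq2 adjusted p 0.0113) and -1.91 (SE 0.49, DESeq2 adjusted p 0.0201), and Pdx1 had -0.70 (SE 0.32) and -1.46 (SE 0.41). Others went the other way, and 6 of the 9 markers without and 3 with tetracycline had a log2 change above 0. Fabp1 was called higher without tetracycline, at 1.08 (SE 0.27, DESeq2 adjusted p 0.00656), and had 0.98 (SE 0.38) with it. Cyp3a11 had 0.72 (SE 0.41) and 2.17 (SE 0.93). The part of intestinal position in the Ces2 levels was not tested.

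The next comparison asked whether the response to fasting differed with tetracycline, as the change with minus the change without it. The median difference over the 10 members was 0.63 on the log2 scale, beside 0.00033 over all 17571 genes compared, with 7 members higher and 3 lower. As these are the contrasts the members were chosen on, the differences are a description and were not tested.

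Ces1d had the highest difference, at 1.87 (SE 0.71), and Ces3b the lowest, at -1.84 (SE 1.48). Ces2b had a difference of -0.49 (SE 0.59). Ces2a, Ces2c and Ces2e had differences of 0.65 (SE 0.68), 0.64 (SE 0.69) and 0.69 (SE 0.68).

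The direction of these differences also turned on fasted library 2 with tetracycline. Without it, 2 members in place of 7 had a higher change with tetracycline, namely Ces1d at 0.73 and Ces2g at 0.19, and the Ces2e difference was -0.43 and that of Ces3b -4.12. Without fasted library 1 in its place, 8 members were higher, and the Ces3b difference was -0.96. Both of these values were chosen after seeing the data.

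Levels with and without tetracycline were set side by side within each feeding state, as log2 ratios centred on the median gene and with no test, since the tables were scaled separately. In the fed state the median of the members was -0.045, with 3 higher and 7 lower, and in the scaling as deposited it was 0.015, with 5 higher and 5 lower. Ces2a had the lowest fed ratio at -1.04 and Ces3b the highest at 0.98, the latter on 4 and 12 counts. Leaving out each fed library in turn gave Ces3b between 0.012 (without fed library 1 with tetracycline) and 1.53 (without fed library 2 without it), and Ces2a between -1.41 and -0.53. At least 1 lower on this scale were 3.4% of 21925 genes and 1 member, Ces2a, and at least 1 higher were 8.38% of the genes and 0 members. Both counts turned on the centring, since in the scaling as deposited the fed ratio of Ces2a was -0.98 and that of Ces3b was 1.04.

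The fed libraries of Ces2a, at 16385 and 18542 normalized counts with tetracycline, lay below the 24240 and 44473 without it. In the fasted state the median was 0.24, with 7 members higher and 3 lower, and Ces1d was highest at 1.28. At least 1 higher were 3.13% of the genes and 1 member, Ces1d, and at least 1 lower were 3.92% and 0 members.

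These fasted ratios rested on fasted library 2 with tetracycline. Without it the median was -0.53, with 2 members higher and 8 lower, and Ces1d was at 0.15. At least 1 lower were then 2 members, Ces2a at -1.40 and Ces3b at -2.80. Without fasted library 1 in its place, the median was 0.83 and all 10 members were higher. In the fed state, leaving out each library in turn gave medians from -0.36 to 0.22. These left-out values were chosen after seeing the data.

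Of 10 further carboxylesterase genes listed for comparison, 6 were in the tables, and 0 of these were called in either by the authors' DESeq2 adjusted p. At an unadjusted DESeq2 p under 0.05 there were 2 without and 1 with tetracycline. Their median log2 change was -0.39 without and 0.44 with tetracycline. Ces1e was the most abundant, with means of 2537 and 3201 normalized counts, and the authors' deposited tables gave it log2 changes of 0.20 (SE 0.30) and 0.53 (SE 0.47). Ces2f and Ces2h, within the Ces2 and Ces3 cluster, had means of 36.0 and 65.9 without and 20.0 and 73.2 with tetracycline. The pseudogene Ces2d-ps, which shares most with Ces2c, had means of 15.4 and 19.3 normalized counts.

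Other ester and lipid hydrolases were examined beside the family. Of 22 tested, 1 was called, in both tables, with a median log2 change of 0.16 without and 0.28 with tetracycline. That gene was Mgll, the monoacylglycerol lipase. It had 1426 and 1935 normalized counts in the fasted and 210.4 and 363.7 in the fed libraries without tetracycline, and 2481 and 901.2 against 211.8 and 199.5 with it.

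Mgll had log2 changes in the authors' deposited tables of 2.55 (SE 0.35, DESeq2 adjusted p 1.57e-10) and 3.04 (SE 0.57, DESeq2 adjusted p 5.91e-05). Unlike the Ces2 genes, Mgll was lower in fasted library 2 than in fasted library 1 with tetracycline. Aadac, a microsomal esterase, had log2 changes of -0.059 (SE 0.29) and 0.62 (SE 0.52) in the authors' deposited tables, and Ephx2, an epoxide hydrolase, 0.66 (SE 0.30) and 0.60 (SE 0.64).

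Genes that rebuild triglyceride and load chylomicrons take up the products of lipid hydrolysis in the enterocyte. Of 17 tested, 3 were called higher and 0 lower without tetracycline, with a median log2 change of 0.26. They were the fatty acid transporter Cd36, the fatty acid binding protein gene Fabp1 and the apolipoprotein gene Apob. The authors' deposited table gave them 1.84 (SE 0.35, DESeq2 adjusted p 3.96e-05), 1.08 (SE 0.27, DESeq2 adjusted p 0.00656) and 1.41 (SE 0.42, DESeq2 adjusted p 0.0370).

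With tetracycline 0 of the 17 were called by DESeq2's adjusted p, 3 had an unadjusted p under 0.05, and the median was 0.83. The count of called genes in this list is no measure of difference between the tables, which was not tested for the list. Of 17 regulators that include the nuclear receptors Hnf4a, Nr1i2 and Ppara, 0 were called in either table by DESeq2's adjusted p, 1 and 1 had an unadjusted p under 0.05, and the medians were 0.024 and 0.057. Hnf4a had log2 changes of 0.044 (SE 0.29) and -0.13 (SE 0.37) in the authors' deposited tables, and Nfe2l2, which controls oxidative stress genes, had -0.40 (SE 0.24) and -0.34 (SE 0.39).

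The genes whose 4 group levels lay closest to those of the summed family were found over the 11656 genes whose mean reached 100 in both tables, by Euclidean distance between centred log2 group means. Among the closest were Rps14 (distance 0.0476), Efna4 (0.0477), Dgat1 (0.0477) and Rnf39 (0.0745). The likeness rests on 4 group means from separately scaled tables.

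In the RefSeq promoter table of GRCm38.p6, the 250 bases before the start were present for Ces1g, Ces2a, Ces2c, Ces2e, Ces2g and Ces3b. The nuclear receptor half-site AGGTCA, searched on both strands, occurred in Ces2a at position -226 and in 14.0% of all 32851 promoters. The motif TATAAA, searched on the plus strand, occurred in Ces3b at position -30 and in 7.59% of all promoters. These matches describe the letters in the window and nothing about binding.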

How the data were processed

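The data were 2 deposited tables in which the authors compared fasted with fed libraries. Per the submitters' processing notes, Salmon, DESeq2 and the build mm10 were used, with no versions given. The columns, per the file headers, are as DESeq2 names them. The authors' mean is a signal, the average of counts divided by size factors. The authors' fold change and its SE are on the log2 scale, and the authors' statistic is a score equal to their ratio. The authors' p-values are given raw and adjusted by Benjamini-Hochberg. No column states the direction, and the word order of the tables' names was taken to mean fasted over fed, and every direction given depends on it.

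Each deposited mean is a weighted sum of whole counts, with 1 weight per library. Sets of counts that give the mean were compared with the deposited fold change through a negative binomial fit like that of the authors' tool, used for nothing else. In this way all 10 members decoded to 1 set of counts in each table, as did 130 of 131 and 130 of 132 other listed genes tried. Genes outside the members were tried only up to a mean of 20000, or 150000 for villus enterocyte markers. The decoding was tested on simulated data. No test was run on these libraries. A change with a library left out is the log2 ratio of the means of the remaining libraries. There are 0 unused per-sample columns.

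Calls use the authors' adjusted p under 0.05. For genes other than the members, a Wald test divides the difference of changes by the root of the summed squared SEs, over 17571 genes with an adjusted p in both tables. It is not reported for the members, which were chosen on the same contrasts. Levels used pseudocount 1. The members and lists were chosen with earlier results of these data known. Named genes beyond the members are at most 6 per list, called ones first and then by highest mean, except genes named for library or tissue content, for their place in the family or as examples, which were chosen after their values were seen. Of the 5 genes most like the family, 1 is not reported here. Symbols, transcripts and positions are those of GENCODE M21. Of the file identifiers, 99.3% and 99.2% matched it without the version, and most carry a version 1 higher, so the coordinates are the reference's own. Levels per kilobase use the reference transcript with the longest coding part. Protein sequences planned for comparison were not used here, and coding bases took their place. Versions were Python 3.11.15, numpy 2.4.6, pandas 2.3.3, scipy 1.17.1 and Biopython 1.88.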

Additional observations from a re-analysis of the deposited data

Results flagged for a closer look

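Ces1c, a carboxylesterase gene outside the 10 described, had changes of opposite sign in the 2 tables. It had 65.1 and 121.5 normalized counts in the fasted and 208.4 and 198.9 in the fed libraries without tetracycline, and 237.8 and 239.4 in the fasted and 138.6 and 100.3 in the fed libraries with it. Every fasted library lay below the fed ones in the first table and above them in the second. The authors' deposited tables gave log2 changes of -1.13 (SE 0.43, DESeq2 adjusted p 0.190) and 0.995 (SE 0.47, DESeq2 adjusted p 0.846). The difference was 2.125 on the log2 scale, with a Wald p adjusted by Benjamini-Hochberg of 0.922, so it did not pass the correction over all genes.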

How the results depend on the processing

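With each library left out in turn, the median change of the members ran from -0.34 to 0.44 without tetracycline and from -0.31 to 1.25 with it, so its sign was not stable in either table. The number of members changed by at least 1 ran from 1 to 2 and from 2 to 7. Members with a higher change with tetracycline ran from 2 to 8 when either fasted library with tetracycline was left out. With each library left out, the median level with over without tetracycline ran from -0.36 to 0.22 in the fed state and from -0.53 to 0.83 in the fasted state. An adjusted p under 0.1 gave 2 called members without tetracycline in place of 1, and under 0.01 gave 0 with tetracycline in place of 2. A log2 threshold of 2 gave 1 changed member without and 2 with tetracycline, and a threshold of 0.5 gave 7 with it. Among single members, 14 of 80 values with a library left out and 1 of 60 other values moved by more than the spread between libraries, and 0 reversed a called change. Ces3b without tetracycline was 3.77 with pseudocount 10. No paired analysis was possible because the libraries behind the tables carry no numbers that link fed and fasted samples. The depth limits the fed level of Ces3b, which rests on 4 and 12 counts. With 2 libraries per side of unknown origin, p-values measure only the spread between these libraries, which may be technical.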
